A study of Sus scrofa with 6 samples.

Results

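Genes of the contacts between the pig oocyte and its cumulus cells were examined in 6 single oocytes at the germinal vesicle stage, the stage of meiotic arrest before maturation. The files listed 19300 genes in all. The set held 8 genes, chosen by name. They were the connexins GJA1, GJA4 and GJC1, the cadherins CDH1 and CDH2, the catenins CTNNB1 and CTNNA1, and the scaffold TJP1. Pig gene IDs for all 8 were taken from a reference table. Transcripts of 6 were listed for at least 1 oocyte, and 4 averaged at least 1 FPKM (a read measure per length of transcript and per mapped fragments of the library) over the 6 oocytes.

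Oocytes were grouped by brilliant cresyl blue (BCB), a dye that glucose-6-phosphate dehydrogenase activity helps to turn colourless. BCB-positive oocytes, which stay blue and are usually regarded as having finished growth, numbered 3, and BCB-negative oocytes, which lose the colour and are usually regarded as still growing, also numbered 3. Both classes came from antral follicles of 3 to 6 mm, carried at least 3 layers of cumulus cells when selected, and were freed of cumulus cells by hyaluronidase and vortexing and of the zona pellucida by pronase before lysis. None had been through maturation culture. Neither strain, age nor animal of origin is given in the labels, so a class counts as a single sample made up of 3 cells, and differences are described without a test.

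Cumulus cells feed the growing oocyte through transzonal projections, fine extensions that cross the zona pellucida and end on the oocyte surface. At these ends, connexins form gap junction channels that pass small molecules such as cyclic nucleotides, while cadherins, held to actin by catenins, keep the membranes together. In the mouse, GJA4 is the main connexin on the oocyte side and GJA1 the main connexin among granulosa cells, and the oocyte contributes CDH1 and the granulosa cells CDH2 to the adherens junction.

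Expected counts summed to between 7820374 and 9238987 in BCB-positive oocytes and to between 7122749 and 7668881 in BCB-negative oocytes. BCB-positive oocyte 3 stood apart from the other oocytes. Its mean Pearson correlation across genes with the other 5 libraries was 0.874, against 0.905 to 0.915 for those libraries, and its FPKM values summed to 668430, against 784781 to 811744. Its reads also came from longer genes, with a count-weighted mean listed length of 2381 bases against 2114 to 2168 bases. The main differences are therefore also given without this oocyte. FPKM is relative to the reads of a library and gives no amount of RNA per oocyte.

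The zona pellucida gene ZP3, which oocytes express, had 5602 to 14619 FPKM in BCB-positive oocytes and 8266 to 18993 FPKM in BCB-negative oocytes. The zona genes ZP4 and ZP2 averaged 5380 and 1560 FPKM over the 6 oocytes. Of the other oocyte markers, ZAR1, FIGLA, GDF9, BMP15 and DDX4 averaged 590, 190, 170, 76.8 and 32.1 FPKM. KIT, DAZL, NLRP5 and NOBOX were low, at means of 5.62, 2.80, 1.06 and 0.37 FPKM, and OOSP2 was found in no file. Of 20 markers of cumulus and granulosa cells, 13 were listed in a file, and the receptors FSHR, LHCGR and AMHR2 and the factor FOXL2 were listed in none. The listed markers summed to 255, 139 and 139 FPKM in BCB-positive oocytes and to 186, 153 and 264 FPKM in BCB-negative oocytes. Nearly all of that sum was KITLG, the ligand of the KIT receptor, and INHBA, an activin subunit, which averaged 159 and 25.9 FPKM over the 6 oocytes. The other 11 listed markers summed to 7.16, 3.46 and 4.90 FPKM in BCB-positive oocytes and to 3.00, 1.83 and 5.16 FPKM in BCB-negative oocytes, and 4.35 FPKM was the highest value of any in an oocyte, for the protease inhibitor SERPINE2. KITLG and INHBA differed by -0.31 and 0.30 between classes on the log2 scale. SERPINE2 differed by -0.31, or -0.71 without BCB-positive oocyte 3. Over the 6 oocytes, 0 of the 3 markers compared were 1.5-fold higher or lower, where 18.9% and 9.46% of all genes were. The 10 listed markers that averaged under 1 FPKM were left out of that count, and 9 of them had a difference above 0. Several of these rested on a few counts in 1 oocyte, such as 1 for TNFAIP6, 1 for CYP11A1 and 4 for PTGS2. How many of all genes under 1 FPKM had a difference above 0 was not computed, so the 9 have no share to be set against. STAR, a cholesterol carrier of steroid-making cells named here after its values were seen, had 1.56, 1.79 and 0.40 FPKM in BCB-positive oocytes, against 0.05, 0.37 and 0.16 FPKM in BCB-negative oocytes. These values came from 32, 39 and 10 counts in BCB-positive and 1, 7 and 3 counts in BCB-negative oocytes. All 3 BCB-positive oocytes were above the BCB-negative oocytes for STAR, alone among the 10 markers under 1 FPKM. Among genes averaging at least 1 FPKM, 7.44% had all BCB-positive oocytes above. The STAR difference was 0.86 (pooled SD 0.41), or 1.17 without BCB-positive oocyte 3. INHA, the inhibin alpha subunit, and AMH, an ovarian hormone, overlapped between classes and differed by 0.44 and 0.35, or 0.67 and 0.56 without that oocyte. The part of these marker levels in the differences of the junction genes was not tested. Of 7 markers of theca and stroma, 5 were listed, at sums of 0 to 3.33 FPKM in BCB-positive and 0.85 to 3.22 FPKM in BCB-negative oocytes. Of 5 blood markers, PTPRC alone was listed, at 0.56 FPKM in BCB-positive oocyte 3 and 0 in the other libraries.

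Catenin transcripts were the most abundant of the junction genes, followed by CDH1 and GJC1. CTNNA1 averaged 88.8 FPKM over the 6 oocytes, CTNNB1 55.7 FPKM, CDH1 19.2 FPKM and GJC1 11.4 FPKM. FPKM is per length, but the RNA was primed with dT and amplified by PCR. Whether long transcripts, such as CDH1 on its model of 4284 bases, were read as fully as short ones was not tested. These levels stood at percentiles 88.4, 83.3, 66.0 and 55.1 of the 11495 genes that averaged at least 1 FPKM. Each gene lay above the next one down in 6 of 6 oocytes. The closest approach was 1.21-fold, both between CTNNA1 and CTNNB1 and between CDH1 and GJC1, so the order held in every library although the ranges over oocytes of CDH1 and GJC1 overlapped. Catenin levels varied little between oocytes, with coefficients of variation over the 6 oocytes of 14.1% for CTNNA1 and 16.2% for CTNNB1. These coefficients were 56.3% for CDH1 and 66.2% for GJC1. The CDH1 value rested on BCB-positive oocyte 3, without which it was 21.8%, against 51.0% for GJC1, 17.1% for CTNNB1 and 11.5% for CTNNA1 over the same 5 oocytes.

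**Figure D1:**
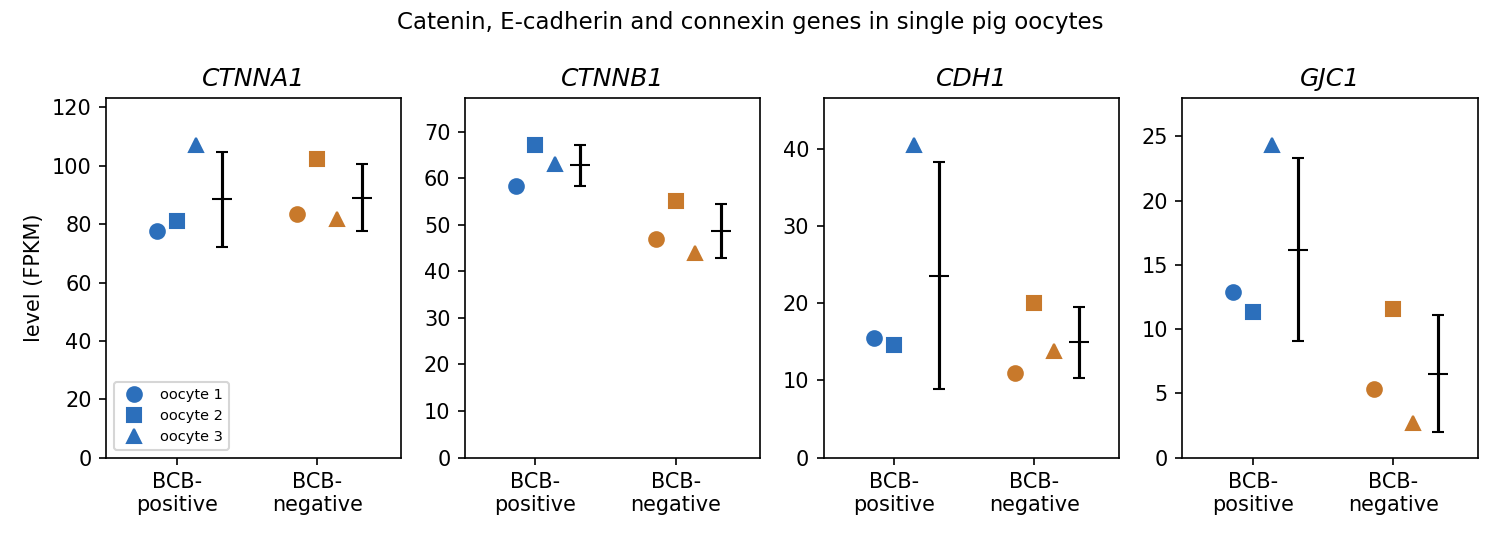
Levels in FPKM of CTNNA1, CTNNB1, CDH1 and GJC1 in single oocytes, BCB-positive in blue and BCB-negative in orange, with marker shapes for oocytes 1 to 3 and black bars for the class mean ± SD (n = 3 oocytes). All 3 BCB-positive oocytes lie above the BCB-negative oocytes for CTNNB1 and not for the other genes, and BCB-positive oocyte 3 is highest for CTNNA1, CDH1 and GJC1.

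Over the junction genes as a set, 1 of the 4 compared members, GJC1, was 1.5-fold or more higher in BCB-positive oocytes on the log2(FPKM + 1) scale, which understates differences of low genes, where 18.9% of all 11495 genes compared were. None of the 4 was 1.5-fold lower, where 9.46% of all genes were. The classes did not overlap, with BCB-positive higher, for 1 of the 4, CTNNB1, against 7.44% of all genes, and with BCB-positive lower for 0 of the 4, against 4.03%. Counts of 0 or 1 among 4 genes are too small to set the members apart from these shares. The median difference of the 4 members was 0.44, against 0.11 for all genes compared, and 0.21 without BCB-positive oocyte 3, against 0.05 for all genes. When that oocyte was left out, 1 of the 4, GJC1, was 1.5-fold higher, against 14.6% of all genes, and 0 were lower, against 10.3%. The classes then did not overlap for CTNNB1, with BCB-positive higher, against 11.5% of all genes, and for CTNNA1, with BCB-positive lower, against 7.65%. Over all genes the median of the within-class pooled SD was 0.54 on the log2 scale. CTNNB1 (0.14) and CTNNA1 (0.22) lay below it, and CDH1 (0.63) and GJC1 (0.74) above it. The members were not compared with genes of similar level in this respect.

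GJC1 (gene 100048959), a connexin of low-conductance gap junction channels, was the only connexin of the set with more than a few reads. It measured 12.9, 11.3 and 24.3 FPKM in BCB-positive oocytes 1, 2 and 3, against 5.36, 11.6 and 2.68 FPKM in BCB-negative oocytes 1, 2 and 3. BCB-negative oocyte 2 lay between BCB-positive oocytes 2 and 1, so the classes overlapped, and the low values were those of BCB-negative oocytes 1 and 3. The means were 16.2 ± 7.12 FPKM in BCB-positive and 6.54 ± 4.56 FPKM in BCB-negative oocytes (SD, n = 3 oocytes each). On the log2(FPKM + 1) scale the BCB-positive minus BCB-negative difference was 1.29, with a pooled SD between oocytes of a class of 0.74. Leaving out BCB-positive oocyte 3 gave 0.97, and leaving out BCB-negative oocyte 3 gave 0.87, the smallest of the 6 such values. The values rested on 703 summed counts in BCB-positive oocytes (exact Poisson 95% interval 652 to 757) and 249 in BCB-negative oocytes (219 to 282). These counts are not scaled for the deeper BCB-positive libraries. Such intervals cover counting error only, since PCR copies are not independent molecules.

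GJA4 (gene 100620145), the main oocyte connexin in the mouse, was close to absent from the reads. It was listed at 0.21 FPKM in BCB-positive oocyte 3, from 3 counts, and at 0.09 FPKM in BCB-negative oocyte 1, from 1 count, and was 0 in the other 4 oocytes. A count of 0 still allows 3 counts, or 0.229 to 0.263 FPKM in those 4 libraries on the listed model of 1602 bases. Whether that model covers the whole transcript was not tested. With both classes at or under that limit of 3 counts, no fold between them was formed.

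GJA1 (gene 100518636), the connexin of cumulus and granulosa cells, was listed in none of the 6 libraries. The files list features with counts above 0, so a gene without reads and a gene outside the authors' annotation look alike there. GJA1 therefore counts as 0 under the selection rule, and its absence from the files does not show that the oocytes lacked the transcript.

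The connexin family as a whole was read mainly from GJA10 and GJC1. Of 21 connexin genes searched with 3 pannexins, 7 connexins and 2 pannexins were listed. GJA10, a connexin that was not in the set of 8, measured 18.4, 12.5 and 40.2 FPKM in BCB-positive oocytes, against 15.6, 15.5 and 30.0 FPKM in BCB-negative oocytes. The BCB-negative values lay within the BCB-positive range for GJA10, with a difference of 0.11 (pooled SD 0.69) on the log2 scale, and -0.33 without BCB-positive oocyte 3. GJC1 gave 38.1%, 44.0% and 34.3% of the summed connexin FPKM in BCB-positive oocytes, and 19.9%, 40.4% and 7.0% in BCB-negative oocytes. GJA10 gave 54.5%, 48.7% and 56.6% in BCB-positive oocytes, and 57.7%, 54.2% and 77.9% in BCB-negative oocytes. The ratio of GJC1 to GJA10 within a library, which no scaling between libraries can alter, was 0.70, 0.90 and 0.60 in BCB-positive oocytes and 0.34, 0.75 and 0.09 in BCB-negative oocytes, again with an overlap through BCB-negative oocyte 2. PANX1, a pannexin that forms channels in a single membrane, measured 1.59, 7.42 and 10.6 FPKM in BCB-positive and 1.98, 2.16 and 0.42 FPKM in BCB-negative oocytes, and the classes overlapped, with a difference of 1.41 (pooled SD 0.92), or 0.98 without BCB-positive oocyte 3. Of the 6 genes of this list that averaged at least 1 FPKM, GJC1 and PANX1 were at least 1.5-fold higher and 1 was lower, where 18.9% and 9.46% of all genes were.

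**Figure D2:**
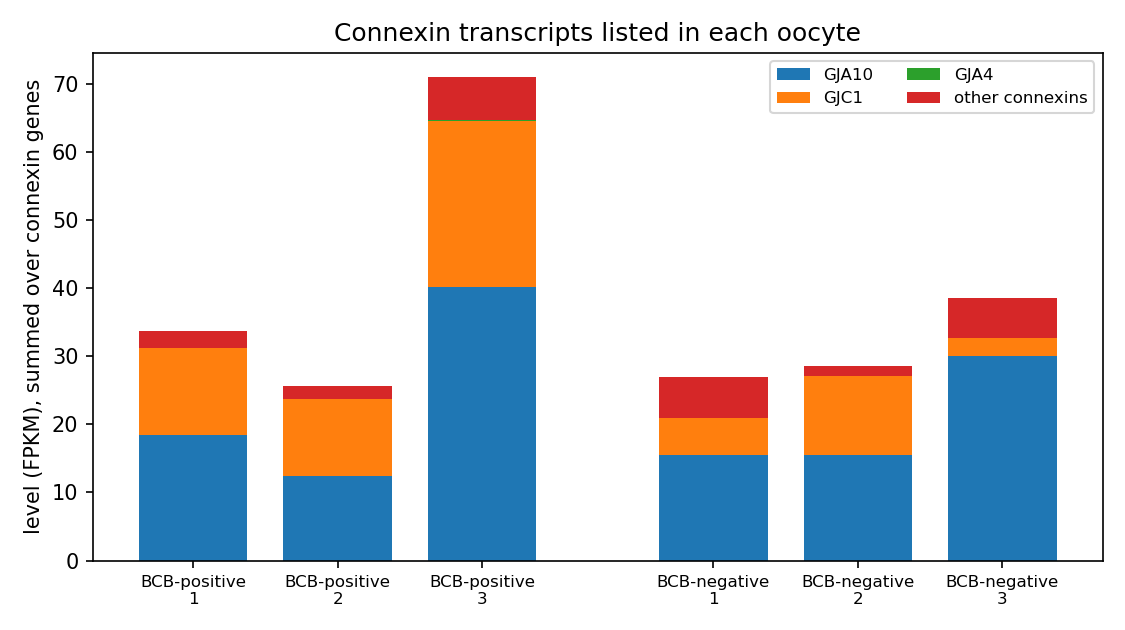
Summed FPKM of the 7 connexin genes listed in at least 1 oocyte, one stacked bar per oocyte, BCB-positive on the left, with the 4 other connexins drawn together. GJA10 and GJC1 make up most of every bar, GJC1 is smallest in BCB-negative oocyte 3, and GJA4 is barely visible.

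CDH1 (gene 100048953), the E-cadherin that the oocyte presents at adherens junctions in the mouse, did not separate the classes. It measured 15.5, 14.6 and 40.5 FPKM in BCB-positive oocytes, against 10.99, 20.0 and 13.8 FPKM in BCB-negative oocytes. Apart from BCB-positive oocyte 3, the 5 values lay between 10.99 and 20.0 FPKM, and BCB-negative oocyte 2 was above BCB-positive oocytes 1 and 2. The means were 23.5 ± 14.7 FPKM in BCB-positive and 14.9 ± 4.61 FPKM in BCB-negative oocytes (SD, n = 3 oocytes each). The log2 difference of 0.51 was smaller than its pooled SD of 0.63 and came to 0.05 without BCB-positive oocyte 3. That oocyte also had the highest total count and the longest count-weighted gene length, and the part of either in its CDH1 value was not tested. CDH1 was the only listed member with fractional expected counts, in 6 of 6 oocytes, as arises when reads are divided between this gene and another, so its level is uncertain to that extent. CDH2 (gene 100515322), the N-cadherin of granulosa cells, was listed in none of the libraries, with the same limit as for GJA1.

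Among 16 cadherins, nectins and related adhesion molecules, 10 were listed and 6 averaged at least 1 FPKM. The most abundant was EPCAM, an epithelial adhesion molecule, at 21.7, 22.4 and 41.2 FPKM in BCB-positive and 13.0, 16.1 and 22.0 FPKM in BCB-negative oocytes. Its log2 difference of 0.67 (pooled SD 0.44) was 0.38 without BCB-positive oocyte 3, and the classes overlapped between BCB-positive oocyte 1 and BCB-negative oocyte 3. CDH8, a cadherin known from neurons, ranked below EPCAM and CDH1, with 12.1, 6.46 and 26.0 FPKM in BCB-positive and 15.8, 9.12 and 6.15 FPKM in BCB-negative oocytes. The median difference of the 6 genes was 0.48, against 0.11 for all genes compared, and leaving out BCB-positive oocyte 3 brought it to 0.09, against 0.05. EPCAM and CDH13 were 1.5-fold or more higher and 0 of the 6 were lower, where 18.9% and 9.46% of all genes were.

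CTNNB1 (gene 397657) encodes beta-catenin, which binds the cadherin tail and also carries the canonical WNT signal into the nucleus. It measured 58.3, 67.1 and 63.0 FPKM in BCB-positive oocytes, against 46.9, 55.0 and 43.9 FPKM in BCB-negative oocytes. All 3 BCB-positive oocytes were above the BCB-negative oocytes, by a narrow gap between BCB-positive oocyte 1 and BCB-negative oocyte 2. The means were 62.8 ± 4.41 FPKM in BCB-positive and 48.6 ± 5.76 FPKM in BCB-negative oocytes (SD, n = 3 oocytes each). The log2 difference was 0.37, larger than the pooled SD of 0.14, and 0.36 without BCB-positive oocyte 3. It stayed below the 1.5-fold limit (0.58 on the log2 scale) used for counts of genes. With median-of-ratios size factors BCB-positive oocyte 3 came to 55.3 and BCB-negative oocyte 2 to 56.1 scaled FPKM, so the classes then overlapped, at a difference of 0.27. Expected counts, not scaled for the deeper BCB-positive libraries, summed to 5277 in BCB-positive and 3613 in BCB-negative oocytes. CTNNB1 overlaps ULK4 in the Sscrofa11.1 reference annotation. ULK4 measured 1.55 to 7.24 FPKM in BCB-positive and 1.67 to 6.34 FPKM in BCB-negative oocytes.

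CTNNA1 (gene 100523778) encodes alpha-catenin, which joins the cadherin and beta-catenin complex to actin. It measured 77.5, 81.0 and 107 FPKM in BCB-positive oocytes, against 83.6, 102 and 81.6 FPKM in BCB-negative oocytes. A high value occurred in each class, in BCB-positive oocyte 3 and BCB-negative oocyte 2, and the other 4 oocytes lay close together. The means were 88.5 ± 16.2 FPKM in BCB-positive and 89.1 ± 11.3 FPKM in BCB-negative oocytes (SD, n = 3 oocytes each), a log2 difference of -0.02 with a pooled SD of 0.22. It ranged from -0.16 without BCB-positive oocyte 3 to 0.08 without BCB-negative oocyte 2.

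The ratio of CTNNA1 to CTNNB1 within a library, examined after the values of both genes were seen, was 1.33, 1.21 and 1.70 in BCB-positive oocytes and 1.78, 1.86 and 1.86 in BCB-negative oocytes. The classes did not overlap, with means of 1.41 ± 0.26 in BCB-positive and 1.83 ± 0.04 in BCB-negative oocytes (SD, n = 3 oocytes each), although BCB-positive oocyte 3 came close to BCB-negative oocyte 1. The log2 ratio was lower in BCB-positive oocytes, with a difference of -0.39, or -0.53 when BCB-positive oocyte 3 was left out. The ratio of CDH1 to CTNNB1 overlapped, at 0.27, 0.22 and 0.64 in BCB-positive and 0.23, 0.36 and 0.31 in BCB-negative oocytes. The ratios of CTNND1 to CTNNB1 and of CDH1 to CTNNA1 overlapped as well. CTNNA1 to CTNNB1 was thus the only ratio examined without an overlap. How often ratios of other gene pairs fail to overlap was not computed.

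Transcripts of the catenins and GJC1 were listed separately in the isoform files. CTNNB1 was divided among 3 transcripts, all listed in 6 of 6 oocytes. The transcript of 3355 bases held the largest share, at 58.3%, 73.2% and 46.8% of CTNNB1 FPKM in BCB-positive oocytes and 53.3%, 64.7% and 81.0% in BCB-negative oocytes. The transcript of 3789 bases gave 18.2%, 9.5% and 21.2% in BCB-positive and 22.0%, 12.4% and 3.4% in BCB-negative oocytes, so neither share separated the classes and each class spanned most of the range. CTNNA1 came almost entirely from a transcript of 2496 bases, at 94.2% to 97.7% in BCB-positive and 93.4% to 98.0% in BCB-negative oocytes. GJC1 came from a transcript of 1737 bases, which was the only one listed in BCB-positive oocyte 2 and in BCB-negative oocytes 1 and 3. That transcript held at least 85.8% of GJC1 FPKM in the BCB-positive oocytes and at least 92.0% in the BCB-negative oocytes. Shares rest on the authors' estimates of how reads divide among transcripts that overlap.

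**Figure D3:**
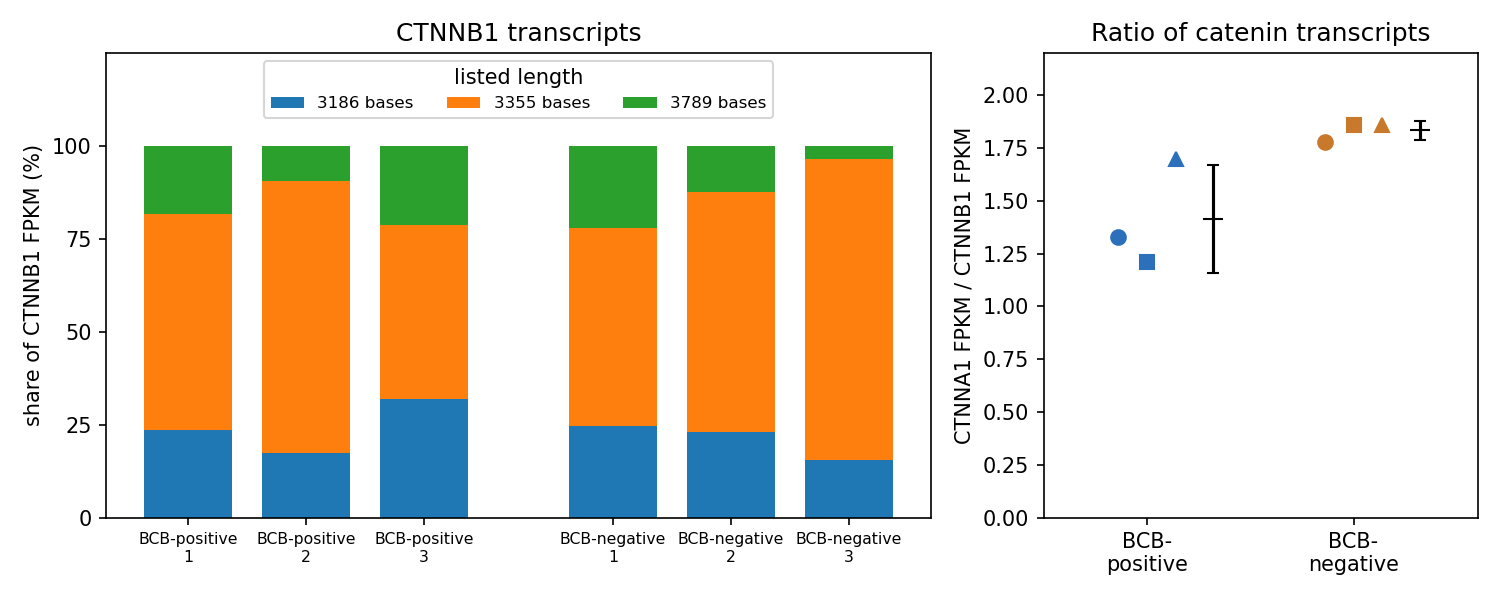
Left, shares in percent of CTNNB1 FPKM held by its 3 listed transcripts in each oocyte, BCB-positive bars first. Right, the ratio of CTNNA1 to CTNNB1 FPKM per oocyte with class mean ± SD (n = 3 oocytes), which lies at 1.21 to 1.70 in BCB-positive and 1.78 to 1.86 in BCB-negative oocytes, while the transcript shares overlap.

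Other catenins and actin adaptors did not separate the classes. Of 14 such genes, 13 were listed and 10 averaged at least 1 FPKM. After CTNNA1 and CTNNB1 the most abundant was CTNND1, or p120 catenin, which holds cadherins at the membrane, at 26.7, 25.6 and 65.1 FPKM in BCB-positive and 26.2, 18.5 and 20.4 FPKM in BCB-negative oocytes. Its difference of 0.70 (pooled SD 0.55) was 0.27 without BCB-positive oocyte 3, where its FPKM was highest. Of the 10 genes, CTNND1 was 1.5-fold or more higher and 0 were lower, where 18.9% and 9.46% of all genes were. The classes stood clear of each other for CTNNB1 alone, where 7.44% of all genes had all BCB-positive oocytes above. The median difference was 0.09, and -0.03 without BCB-positive oocyte 3.

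TJP1 (gene 100736682), a scaffold that ties connexins and tight junction proteins to actin, was listed in BCB-negative oocyte 3 alone, at 0.73 FPKM from 18 counts on a model of 3522 bases. It was 0 in the 3 BCB-positive oocytes and in BCB-negative oocytes 1 and 2, where a count of 0 allows 0.092 to 0.112 FPKM on that model. TJP1 overlaps SEH1L in the Sscrofa11.1 reference annotation, and SEH1L was listed in no oocyte under its gene ID there. Whether the model covers the whole transcript was not tested, so the limit holds for the model only.

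Tight junction and polarity genes were well represented. Of 32, 27 were listed and 22 averaged at least 1 FPKM. The claudins CLDN10 and CLDN7, which span the membrane, averaged 153 and 86.1 FPKM over the 6 oocytes, and the scaffold MAGI3 averaged 90.4 FPKM. MAGI3 measured 83.9, 80.5 and 150 FPKM in BCB-positive and 81.1, 74.2 and 72.6 FPKM in BCB-negative oocytes, overlapping between BCB-positive oocyte 2 and BCB-negative oocyte 1. PATJ, a polarity scaffold that partners the protein PALS1, measured 1.83, 11.04 and 3.22 FPKM in BCB-positive and 1.46, 0.53 and 0.44 FPKM in BCB-negative oocytes. The classes did not overlap for PATJ, with a difference of 1.58 (pooled SD 0.82), and 1.73 without BCB-positive oocyte 3, but BCB-positive oocyte 1 and BCB-negative oocyte 1 were close. PATJ was the only one of the 22 without an overlap, where 7.44% of all genes had all BCB-positive oocytes above. Of the 22 genes, PATJ, MARVELD2 and PARD6G were at least 1.5-fold higher and TJP3, a paralog of TJP1, was lower, where 18.9% of all genes were higher and 9.46% lower. The median difference of the 22 was 0.16, and 0.11 without BCB-positive oocyte 3.

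Genes of the cortical actin and of cell projections included EZR, ezrin, which links membrane proteins to actin in microvilli. EZR measured 119, 63.0 and 80.1 FPKM in BCB-positive and 140, 88.8 and 116 FPKM in BCB-negative oocytes, with overlapping classes and a difference of -0.42 (pooled SD 0.40), or -0.38 without BCB-positive oocyte 3. CDC42, a GTPase of cell polarity, and CAMSAP3, which holds microtubule minus ends, averaged 63.2 and 22.8 FPKM over the 6 oocytes and differed by 0.15 and 0.01. MYO10, a myosin of filopodia that in the mouse takes part in making transzonal projections from the granulosa side, measured 9.83, 12.1 and 13.4 FPKM in BCB-positive oocytes and 7.12, 4.94 and 9.72 FPKM in BCB-negative oocytes. The classes did not overlap for MYO10, although BCB-positive oocyte 1 and BCB-negative oocyte 3 were nearly equal. Its difference was 0.66 (pooled SD 0.34), or 0.57 without BCB-positive oocyte 3, below the 1.5-fold limit. Of 8 genes compared of 16 in this list, MYO10 and the formin DAAM1 were at least 1.5-fold higher and 0 were lower. Over all genes, 18.9% were higher and 9.46% lower. MYO10 alone of the 8 did not overlap, where 7.44% of all genes had all BCB-positive oocytes above. DAAM1 differed by 0.07 without BCB-positive oocyte 3.

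Beta-catenin is marked for destruction by a complex of AXIN1, APC, GSK3B and CSNK1A1. AXIN1 measured 54.8, 26.3 and 26.4 FPKM in BCB-positive and 34.9, 71.9 and 68.5 FPKM in BCB-negative oocytes, with a difference of -0.71 (pooled SD 0.58) and -0.54 without BCB-positive oocyte 3, which is short of 1.5-fold. BCB-positive oocyte 1 was above BCB-negative oocyte 1, so the classes overlapped. GSK3B and CSNK1A1 averaged 44.1 and 24.9 FPKM over the 6 oocytes and differed by 0.27 and -0.10. APC averaged 0.175 FPKM over the 6 oocytes, under the limit of 1 FPKM, and was not compared. Of 4 genes compared of 11, 0 were at least 1.5-fold higher and 1, AXIN1, was lower, where 18.9% and 9.46% of all genes were. Integrins, the receptors for extracellular matrix, were led by ITGB5, ITGA6 and ITGA4 at means of 21.5, 13.3 and 6.49 FPKM. Of 19 integrins, 8 were compared and 0 were 1.5-fold higher or lower, against the same shares of all genes. Among 13 oocyte markers, 11 were compared. ZP3 and the transcription factor FIGLA were at least 1.5-fold lower and 1 marker was higher, where 9.46% and 18.9% of all genes were. The marker at least 1.5-fold higher was KIT, the receptor for KITLG, at 5.03, 9.37 and 8.59 FPKM in BCB-positive and 2.81, 4.32 and 3.61 FPKM in BCB-negative oocytes.

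Without BCB-positive oocyte 3, counts of 1.5-fold differences changed in 8 of the 11 lists of related genes and cell markers. The shares of all genes at least 1.5-fold higher and lower were 18.9% and 9.46% over the 6 oocytes and 14.6% and 10.3% without that oocyte, and no list was tested against these shares. Leaving it out gave 4 higher and 0 lower tight junction genes, 0 and 0 cadherins and nectins, 1 and 1 catenins and adaptors, 0 and 0 projection genes, 0 and 0 beta-catenin turnover genes, 1 and 0 oocyte markers, 0 and 1 integrins, and 0 and 1 cumulus and granulosa markers, while connexins and pannexins stayed at 2 and 1.

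**Figure D4:**
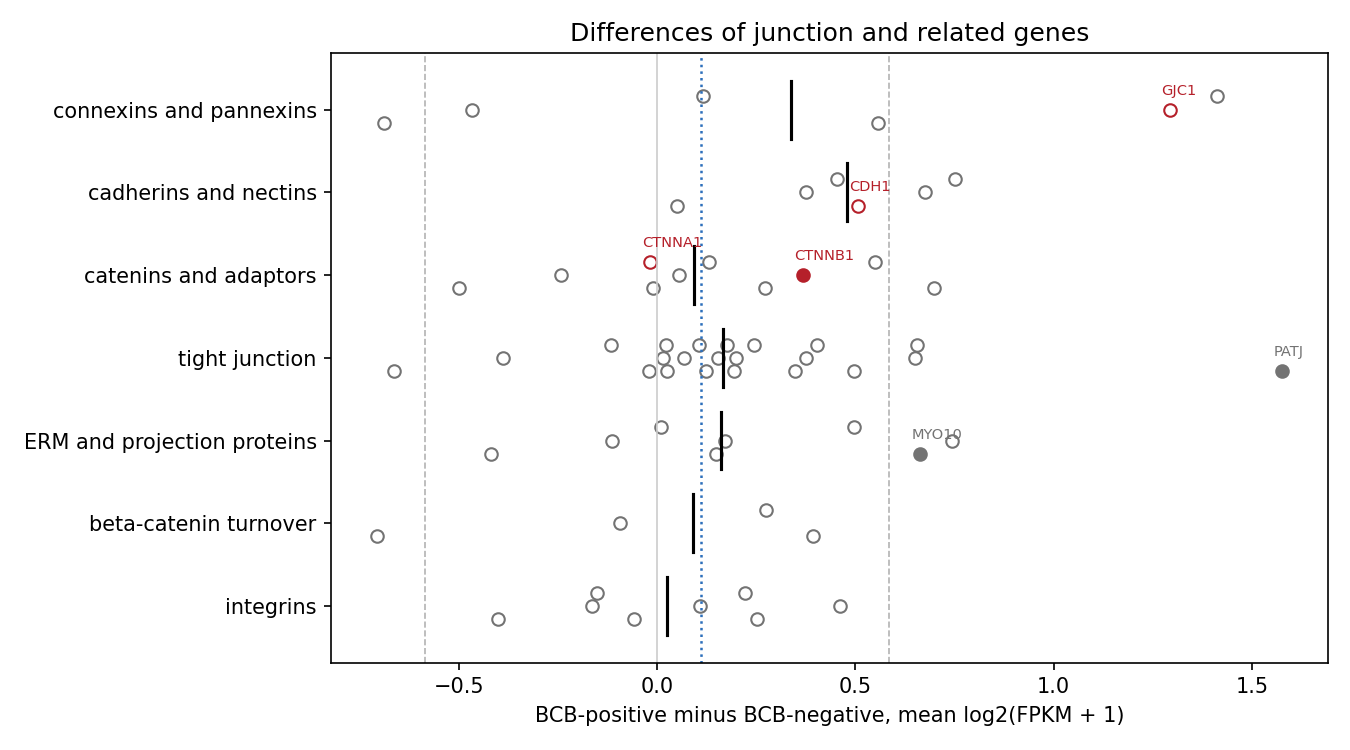
BCB-positive minus BCB-negative difference of mean log2(FPKM + 1) for the genes of 7 related lists that averaged at least 1 FPKM, with CTNNA1, CTNNB1, CDH1 and GJC1 in red. Filled points mark genes whose classes do not overlap, black bars list medians, the dotted line the median of all genes (0.11) and dashed lines 1.5-fold. CTNNB1, PATJ and MYO10 are the filled points, and most genes lie within the dashed lines.

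For each of the 4 compared members, the gene with the most similar profile over the 6 oocytes was sought among 5648 named genes that averaged at least 5 FPKM. Likeness was the mean absolute difference between log2(FPKM + 1) profiles, each centred on its own mean. CEP70 was closest to GJC1 at 0.108, HENMT1 to CDH1 at 0.086, UBE2H to CTNNA1 at 0.055 and GATAD2A to CTNNB1 at 0.047. The measure describes 6 cells and implies no shared function. HENMT1, for instance, measured 65.1, 56.8 and 198 FPKM in BCB-positive and 49.3, 90.0 and 62.6 FPKM in BCB-negative oocytes, with the same high BCB-positive oocyte 3 as CDH1.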

How the data were processed

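Poly(A) RNA of single oocytes was reverse transcribed with a primer ending in 24 dT, amplified by PCR and sequenced together in 1 lane, per the labels' protocols. BWA, Cufflinks, RSEM and the build Sscrofa10.2 are named in the submitters' processing notes, without roles or versions. Deposited files give each gene's and transcript's length, expected count and FPKM. The deposited expected counts divide shared reads by estimate and were used for depth and counting intervals. FPKM values were computed by the authors, per the file headers, and a gene not listed was set to 0.

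Gene IDs were matched to Sscrofa11.1 symbols, 13936 by gene ID and 133 by transcript accession, and 5231 were unmatched. Differences are of mean log2(FPKM + 1) over genes averaging at least 1 FPKM, BCB-positive minus BCB-negative, and counts use 1.5-fold. No test was run, since no animal is named. Named genes were the 8 members, the 3 most abundant genes of each list, non-overlapping genes at least 1.5-fold apart and each member's most similar profile. Outside that rule, some genes at least 1.5-fold apart with overlapping classes and some cell markers were named. ULK4 and SEH1L were named because they overlap members in the Sscrofa11.1 annotation. Whether they overlap in the annotation that the authors used was not tested. The members and lists were chosen with earlier results of these data known. Alternatives were another pseudocount, scaling, measure, class summary or filter, and leaving out each oocyte. Calculations used Python 3.11.15, NumPy 2.4.6, pandas 2.3.3 and SciPy 1.17.1, and were tested on simulated data. The simulated differences were larger than the 1.5-fold limit, so this checked the code and gives no error rate for these data. Some genes of the lists are counted but not reported here by name.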

Additional observations from a re-analysis of the deposited data

How the results depend on the processing

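Differences of the 4 compared members moved by less than their SD between oocytes under every alternative run. Leaving out 1 oocyte at a time gave 0.87 to 1.75 for GJC1, 0.05 to 0.75 for CDH1, 0.30 to 0.46 for CTNNB1, -0.16 to 0.08 for CTNNA1 and 0.21 to 0.59 for the members' median, with 1 to 2 members at least 1.5-fold higher, 1 to 3 with all BCB-positive oocytes above and 0 to 1 with all below. The 1.5-fold count was 2, CDH1 joining GJC1, with FPKM rescaled to a common sum (0.60 for CDH1) and with the ratio of class means (0.62). Members with all BCB-positive oocytes above numbered 0 under size factors. The members' median was 0.03 with no filter, which brings in 4 members at or near 0. The median of all genes was 0.02 under size factors, 0.19 with a common sum and 0.11 as deposited, and CTNNA1 differed by -0.12, 0.08 and -0.02. Leaving out BCB-positive oocyte 3 for related lists, ratios and coefficients of variation was chosen after seeing the data. No paired analysis was possible because the labels do not say whether oocytes with the same number share an animal. With no animal named, a difference between animals and one between classes cannot be told apart.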
